A study of Mus musculus with 11 samples.

Results

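This report describes 10 genes of the epithelial-mesenchymal transition, of 24421 genes listed, in sorted mouse keratinocytes from wounded and unwounded skin. They were taken by gene symbol from the count tables: the transcription factors *Snai1*, *Snai2*, *Zeb1*, *Zeb2* and *Twist1*, the mesenchymal markers *Vim*, *Cdh2* and *Fn1*, and the epithelial splicing regulators *Esrp1* and *Esrp2*. In the transition, an epithelial cell loosens its junctions and takes up features of migratory mesenchymal cells. SNAIL, ZEB and TWIST factors are known to repress epithelial genes such as *Cdh1*, while ESRP proteins keep the epithelial splice forms of many transcripts. In a healing epidermis, keratinocytes at the wound edge migrate as a sheet and use some of these features without becoming mesenchymal cells.

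RNA-seq and ATAC-seq, which reads open chromatin, were performed to ask how wounding and loss of the transcription factor GRHL3 change keratinocytes at the wound front. WT mice carried *Krt14*-Cre without a floxed *Grhl3*, and the animals labelled *Grhl3*-cKO carried *Krt14*-Cre with floxed *Grhl3*, so that recombination was driven in keratinocytes. They were littermates of both sexes, 8 weeks old, of a strain given as C57BL/6 in the labels and C57BL/6J in the study's methods. Wounded samples came from the 1 mm margin of full-thickness wounds made with a 4 mm punch, 3 days earlier, and unwounded samples from distant skin; CD49F-positive cells were sorted with CD45-, CD31- and TER119-positive cells removed. RNA-seq gave 2 WT unwounded, 2 WT wounded, 1 *Grhl3*-cKO unwounded and 2 *Grhl3*-cKO wounded libraries, and ATAC-seq 1 library per condition, each described as a pool of 4 wounds from 2 mice. The labels do not say that replicates were separate animals, so p-values measure the spread between these libraries.

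Counts on genes totalled between 13497283 and 16807451 per library. A count of 0 in a library allows up to 0.178 to 0.222 CPM (the count relative to all counts on genes in that library), from 3 counts and for counting error only. *Grhl3* itself (chromosome 4, bases 135541888 to 135573630 of mm10) was counted 1893 and 1398 times in WT unwounded, 1831 and 1388 times in WT wounded and, under the *Grhl3*-cKO label, 1029 without and 1765 and 1491 with a wound. *Grhl3* counts thus did not separate the genotypes, and the groups here follow the labels. The counts cover the whole gene and so do not test loss of the floxed exons. The unwounded library labelled *Grhl3*-cKO also stood apart from the other 6: it had 14854 counts of *Xist* and 0 of the Y-linked *Ddx3y*, where the others had between 1368 and 1852 counts of *Ddx3y*. Among those 6, *Xist* had 4 and 3 counts in WT unwounded, 32 and 25 in WT wounded and 19 and 25 in wounded *Grhl3*-cKO libraries, and it rose on wounding in WT (log2 fold change 3.01, adjusted p = 0.0101 by edgeR). It is the only unwounded library with its label, so sex cannot be told apart from genotype in unwounded skin, or from wounding among the libraries with that label.

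The keratinocyte identity of the libraries was clear. The basal keratinocyte genes *Krt5*, *Krt14*, *Col17a1*, *Itga6*, *Itgb4* and *Trp63* summed to between 30890 and 44746 CPM, led by *Krt14*. Of the 10 genes, 9 passed the filter on low counts and were tested; *Cdh2* did not.

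Levels differed between the genes far more than between conditions. On the RPKM scale, which divides CPM by exon length in kilobases and so allows levels of different genes to be compared, *Esrp1* was highest of the 10, between 54.3 and 74.4 over the 7 libraries. *Esrp2* followed at 30.1 to 38.3 RPKM and *Snai2* at 20.8 to 30.8 RPKM, and the ranges of these 2 genes touched. *Vim* at 1.45 to 13.6 RPKM and *Fn1* at 1.99 to 9.04 RPKM formed an intermediate pair that overlapped. *Snai1* reached 0.637 RPKM at most, *Twist1* 0.585, *Zeb1* 0.362 and *Zeb2* 0.306, and these 4 could not be ordered. *Cdh2* had no count in any library.

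*Snai2* had the most RNA of the 5 transition factors among the 10 genes. Of further factors listed below, *Sox9* (102 to 167 RPKM), *Id3* (52.9 to 79.7 RPKM), *Id1* (35.4 to 79.5 RPKM) and *Tcf3* (29.1 to 40.2 RPKM) were above it in all 7 libraries. *Snai2* encodes SLUG, the SNAIL family member known for its part in keratinocyte migration and re-epithelialization. WT libraries counted it 651 and 1016 times without a wound and 823 and 960 times with a wound. Under the *Grhl3*-cKO label it had 597 counts without and 728 and 876 with a wound. The WT groups overlapped, as did the 2 wounded groups. In CPM, *Snai2* was 51.2 ± 13.0 (SD, n = 2) in WT unwounded, 55.8 ± 9.08 (SD, n = 2) in WT wounded and 54.6 ± 9.56 (SD, n = 2) in wounded libraries labelled *Grhl3*-cKO. Its log2 fold change was 0.15 (95% interval -0.33 to 0.63) for wounding in WT and -0.02 (95% interval -0.50 to 0.46) between the wounded groups. Of the RPKM summed over *Snai1*, *Snai2*, *Zeb1*, *Zeb2* and *Twist1*, *Snai2* made up between 96.0% and 98.8% per library.

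*Snai1*, the founding member of the family and a direct repressor of *Cdh1*, was near the limit of detection. It had 16 and 7 counts in WT unwounded, 4 and 7 in WT wounded and, under the *Grhl3*-cKO label, 5 without and 1 and 12 with a wound. No group stood apart. Its log2 fold change in WT was -1.02 with a 95% interval from -5.33 to 3.28, which does not exclude large changes in either direction.

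The ZEB factors, zinc finger and homeodomain proteins that repress epithelial genes, were also sparse. *Zeb1* had 17 and 0 counts in WT unwounded, 35 and 10 in WT wounded and, under the *Grhl3*-cKO label, 3 without and 10 and 18 with a wound. *Zeb2* had 8 and 15 counts in WT unwounded, 14 and 54 in WT wounded and, under the *Grhl3*-cKO label, 0 without and 9 and 17 with a wound. For both genes 1 WT wounded library was high, replicate 1 for *Zeb1* and replicate 2 for *Zeb2*, and the other lay within the unwounded range. The log2 fold change in WT was 1.33 for *Zeb1* (95% interval -2.38 to 5.05) and 1.64 for *Zeb2* (95% interval -1.36 to 4.64). Leaving out 1 library moved these estimates from 0.26 to 7.40 for *Zeb1* and from 0.26 to 2.33 for *Zeb2*. Without WT unwounded replicate 1, which leaves 0 counts in the remaining unwounded library, *Zeb1* had an unadjusted P of 0.0410.

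*Twist1*, a basic helix-loop-helix factor, was counted 16 times in replicate 2 of WT unwounded skin, 6 times in each of the 2 wounded libraries labelled *Grhl3*-cKO and had no count in the other 4. Neither WT wounded library had a count. Its unadjusted P was 0.119 for wounding in WT and 0.129 between the wounded groups.

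*Vim* was higher in the wounded than in the unwounded WT libraries. It encodes vimentin, the intermediate filament protein of mesenchymal cells. In WT unwounded libraries it had 8.39 and 9.52 CPM (130 and 160 counts), and in WT wounded libraries 15.4 and 29.2 CPM (257 and 450 counts). Both wounded libraries lay above both unwounded ones. Its mean went from 8.96 ± 0.796 CPM (SD, n = 2) to 22.3 ± 9.73 CPM (SD, n = 2), a 2.49-fold ratio. The log2 fold change was 1.34 (standard error 0.34, 95% interval 0.62 to 2.07), with an unadjusted P of 0.00122. With Benjamini-Hochberg adjustment over all 14045 genes tested, edgeR's quasi-likelihood test gave *Vim* an adjusted p of 0.416. That call depended on the fit: the adjusted p by edgeR was 0.0167 with no filter. It was 0.00980 with a replicate block, which pairs libraries of the same number, though nothing says that these share an animal. With at least 10 counts in every library it was 0.711, and with only the 4 libraries compared 0.951. By DESeq2 it was 0.167. Leaving out WT wounded replicate 2 lowered the estimate to 0.79 (unadjusted P = 0.0489), and leaving out replicate 1 raised it to 1.73.

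The libraries labelled *Grhl3*-cKO had 3.19 CPM of *Vim* in the unwounded and 21.9 and 29.8 CPM in the wounded samples. Both wounded values were above the unwounded one, 8.10-fold higher on average, but the unwounded library was the one that differed in sex. The unwounded value was also under those of both WT unwounded libraries. Between the wounded groups the *Vim* values interleaved, with a log2 fold change of 0.23 (95% interval -0.48 to 0.93). Whether the wound response of *Vim* differed between the genotypes was not tested.

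*Fn1* encodes fibronectin, a matrix glycoprotein that migrating keratinocytes contact in the wound bed. It had 36.6 and 31.8 CPM in WT unwounded and 76.7 and 31.1 CPM in WT wounded libraries. Only WT wounded replicate 1 was high; replicate 2 was below both unwounded libraries, so the groups overlapped. The log2 fold change was 0.68 (standard error 0.32, 95% interval 0.00 to 1.35), with an unadjusted P of 0.0495 and an adjusted p of 0.984 by edgeR. This call was on the threshold and not stable: it held in 4 of 16 alternative fits, and DESeq2 gave an unadjusted P of 0.0540. The edgeR test has 4 combinations of settings, all run, and the one used was picked after seeing the data; the other 3 gave 0.0543, 0.0851 and 0.0860, so *Fn1* passed in 1 of 4. Without WT wounded replicate 1 the estimate was -0.11, and without replicate 2 it was 1.17.

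In libraries labelled *Grhl3*-cKO, *Fn1* was 16.9 CPM in the unwounded and 33.9 and 44.3 CPM in the wounded samples. The wounded values were above the single unwounded value but within the range of the WT libraries. Against WT wounded, the *Fn1* log2 fold change was -0.44 (95% interval -1.12 to 0.23). It was 0.34 without WT wounded replicate 1 and -0.94, with an unadjusted P of 0.00236, without WT wounded replicate 2.

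*Cdh2* encodes N-cadherin, whose exchange for E-cadherin is a classic sign of a full transition. With 0 counts in all 7 libraries it was not detectable at this depth in either genotype, wounded or unwounded.

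*Esrp1* and *Esrp2* kept high levels. *Esrp1* had 248 and 295 CPM in WT unwounded, 215 and 252 in WT wounded and, under the *Grhl3*-cKO label, 272 without and 274 and 238 with a wound. The WT groups overlapped. *Esrp2* had 116 and 134 CPM in WT unwounded, 106 and 114 in WT wounded and, under the *Grhl3*-cKO label, 135 without and 123 and 124 with a wound. For *Esrp2* the WT wounded libraries lay just under the unwounded ones, by less than the spread allows to be told apart. The log2 fold change on wounding in WT was -0.19 for *Esrp1* (95% interval -0.55 to 0.17) and -0.15 for *Esrp2* (95% interval -0.51 to 0.21). Between the wounded groups it was 0.16 for *Esrp1* (95% interval -0.21 to 0.52) and 0.19 for *Esrp2* (95% interval -0.17 to 0.55). *Esrp2* shares 219 exon bases with *Nfatc3* on the opposite strand, and reads from the pair cannot be told apart there.

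**Figure D1:**
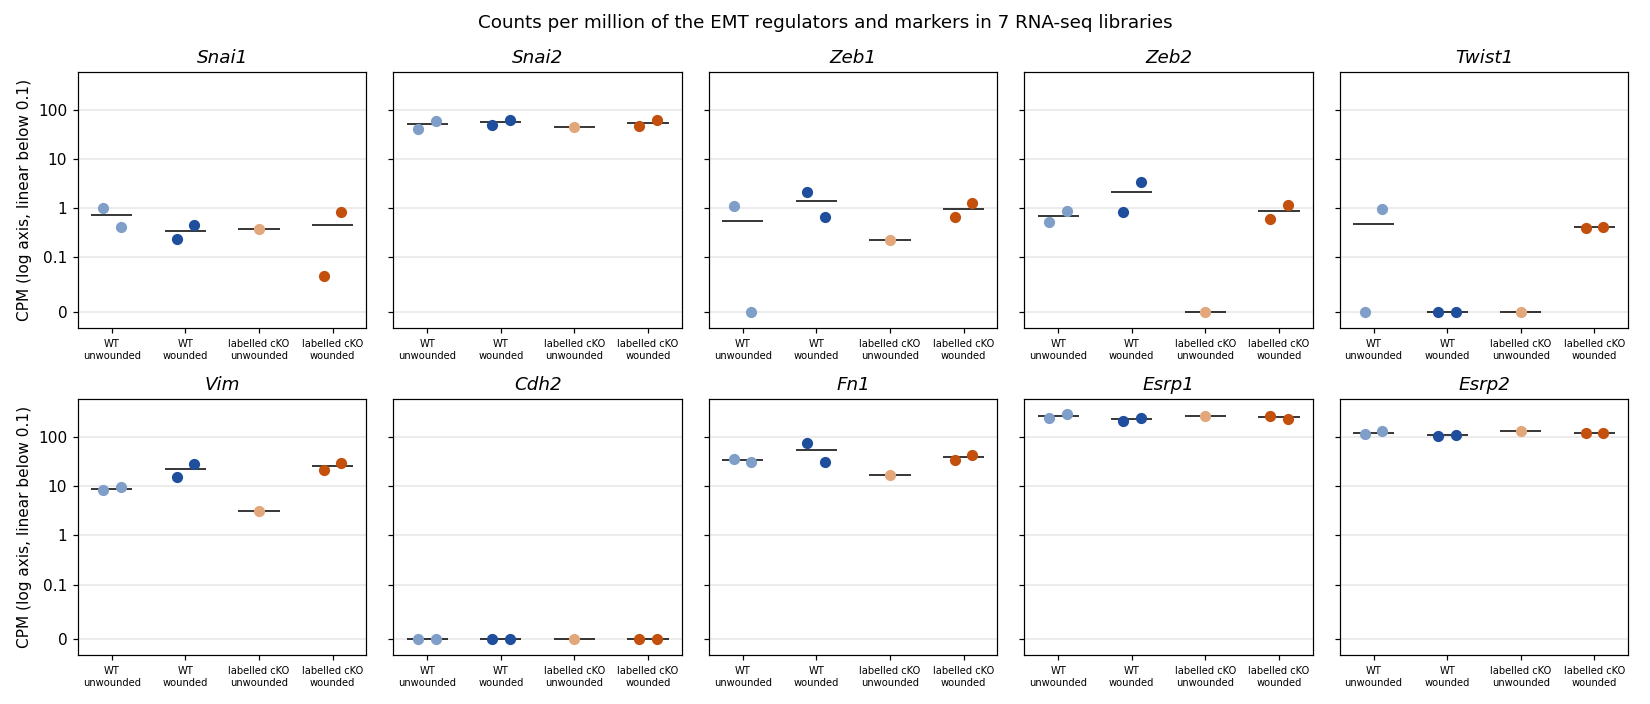
CPM of the 10 genes on a log axis that is linear below 0.1, with each point a library and each line the group mean. *Vim* sits between 15.4 and 29.8 CPM in the 4 wounded libraries and at 9.52 CPM or less in the 3 unwounded ones, while *Cdh2* is at 0 throughout.

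Counted together, 2 of the 9 genes tested, *Vim* and *Fn1*, passed an unadjusted P of 0.05 for wounding in WT, both higher. Over all genes tested the share was 4.84%, and 3.18% for higher alone. In the same edgeR fit none of the 9 passed an adjusted p of 0.05, against 4 genes or 0.0285% of all tested; in some alternative fits *Vim* did. Between wounded libraries labelled *Grhl3*-cKO and WT wounded libraries, 0 of the 9 passed an unadjusted P of 0.05, where 4.04% of all genes did (567 genes by edgeR, 556 by DESeq2). No gene at all passed an adjusted p of 0.05 with edgeR (0%), and 3 did with DESeq2. The WT wounded libraries enter both comparisons.

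The wounded libraries labelled *Grhl3*-cKO were set against their 1 unwounded library by a 2-fold rule with no test. *Zeb1*, *Zeb2*, *Twist1*, *Vim* and *Fn1* were at least 2-fold higher in both wounded libraries, 5 of the 9 genes, where 5.69% of all genes were higher and 3.89% lower. None of the 9 was lower. For *Zeb1*, *Zeb2* and *Twist1* the rule compares 3, 0 and 0 unwounded counts with at most 18, and with at least 10 counts required in every library only *Vim* and *Fn1* were left. In unwounded skin, the library labelled *Grhl3*-cKO was at least 2-fold below both WT libraries for *Zeb2* and *Vim*, 2 of the 9, where 5.01% of all genes were lower. None of the 9 was higher there, against 4.98% of all genes. All these counts rest on that 1 library, the one with *Xist*.

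Markers of other cells moved with wounding, and they are given here because *Vim*, *Fn1* and the ZEB genes are also expressed by stromal, endothelial and immune cells. The 8 endothelial genes listed, led by *Flt1*, summed to 1.87 and 3.69 CPM in WT unwounded and 29.3 and 17.8 CPM in WT wounded libraries. In libraries labelled *Grhl3*-cKO they summed to 0.815 CPM unwounded and 13.1 and 10.5 CPM wounded. The sum was thus higher in every wounded library, as *Vim* was, and highest in WT wounded replicate 1, the library with the most *Fn1* and *Zeb1*. Among the wounded libraries the order of *Vim* differed from that of the sum. *Vim* was lowest in WT wounded replicate 1, at 15.4 CPM. It was highest, at 29.8 CPM, in wounded *Grhl3*-cKO replicate 2, which had the lowest wounded endothelial sum. *Flt1* rose in WT by a log2 fold change of 4.44 (adjusted p = 0.203 by edgeR, standard error 0.97), *Cdh5* with 3.46 and *Kdr* with 4.20, and 4 of the 8 passed an unadjusted P of 0.05 and 0 an adjusted p of 0.05.

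The 8 leukocyte genes summed to 4.84 and 14.9 CPM in WT unwounded, 12.6 and 33.9 CPM in WT wounded and, under the *Grhl3*-cKO label, 10.4 CPM without and 13.9 and 16.4 CPM with a wound. They were led by *Cd74*, with *Cd3e* at 0 in every library and *Ptprc* at 0 in 5 of 7. The highest sum was in WT wounded replicate 2, the library with the most *Zeb2*. Of 5 tested, 2 passed an unadjusted P of 0.05 in WT, *Lyz2* and *Cd74*. *Lyz2*, a myeloid gene, had no count in WT unwounded libraries and 0.961 and 2.40 CPM in WT wounded ones.

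The 8 fibroblast genes summed to 65.7 and 73.1 CPM in WT unwounded, 50.4 and 112 CPM in WT wounded and, under the *Grhl3*-cKO label, 37.1 CPM without and 86.4 and 107 CPM with a wound. Most of that was *Thy1*, while *Lum* reached 0.454 CPM and *Fap* 0.324 CPM at most. The collagen gene *Col3a1* was counted 155 and 61 times in WT unwounded, 76 and 259 times in WT wounded and, under the *Grhl3*-cKO label, 4 times without and 129 and 202 times with a wound. *Col3a1* and *Col1a1* (1.85 CPM) were lowest in the library with the least *Vim*, whereas *Pdgfra* was highest there, at 1.26 CPM, and *Col1a2*, at 7.63 CPM, was above both WT unwounded libraries. *Dcn* had at least 1.64 CPM in the 4 wounded libraries and at most 0.839 CPM in the 3 unwounded ones. By the 2-fold rule, 4 fibroblast genes were higher in both wounded libraries labelled *Grhl3*-cKO. Of 6 tested, *Col1a2* alone passed an unadjusted P of 0.05 in WT, from 4.97 and 3.69 CPM to 7.87 and 11.3 CPM. Among the wounded libraries *Col1a2* (8.67 and 12.7 CPM under the *Grhl3*-cKO label) had the order of *Vim*, as had *Thy1* and, at few counts, *Pdgfra*. *Thy1* was 30.8 and 65.5 CPM in WT wounded and 60.8 and 68.8 CPM in wounded *Grhl3*-cKO libraries. In WT unwounded it was 37.1 and 58.5 CPM, so the WT groups overlapped. The fibroblast sum, *Col1a1* and *Col3a1* were instead highest in WT wounded replicate 2, and *Dcn* in replicate 1. The 6 mural and smooth muscle genes, led by *Cspg4*, summed to between 67.8 and 154 CPM, with *Rgs5* at 0.0657 CPM or less, and 0 of 4 tested passed on wounding in WT. The 8 melanocyte genes, led by *Mitf*, summed to between 26.7 and 59.3 CPM; of 6 tested, *Dct* and *Tyr* were higher and *Mitf* lower in WT wounded libraries. What part any of these cells had in the values of *Vim*, *Fn1*, *Zeb1* and *Zeb2* was not tested, and more cells of a type cannot be told apart from more RNA per cell in bulk libraries.

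Other genes of the programme were read from lists of transition factors, mesenchymal and epithelial markers, splicing regulators and TGF-beta signalling. Of 15 further transition factors, 11 were tested and 0 passed an unadjusted P of 0.05 in either comparison; the median log2 fold change on wounding in WT was -0.15, beside 0.00 over all genes. Of the 9 factors that maintain the epithelial state, such as *Grhl2*, *Ovol1* and *Klf5*, 0 passed on wounding, with a median of -0.04. Over all genes tested 4.84% passed on wounding in WT and 4.04% between the wounded groups, so 0 in lists this short is near the share. *Klf4* was higher in wounded libraries labelled *Grhl3*-cKO than in WT wounded ones, with a log2 fold change of 0.38 (95% interval 0.02 to 0.74, unadjusted P = 0.0387).

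Among 19 other mesenchymal and migration-associated genes, 10 were higher and 1 lower in WT wounded libraries at an unadjusted P of 0.05, and the median log2 fold change was 0.69. Of all 14045 genes tested, 446 were higher and 234 lower, with a median of 0.00. An adjusted p of 0.05 by edgeR was passed by 2 of the 19. *Mmp9*, a gelatinase of migrating cells, had no count in WT unwounded and 8.89 and 38.8 CPM in WT wounded libraries (adjusted p = 0.00430 by edgeR). *Cald1*, an actin-binding regulator of contraction, went from 36.0 and 53.8 CPM to 111 and 161 CPM (log2 fold change 1.62, standard error 0.25, adjusted p = 0.0258 by edgeR). Both genes were higher beside *Vim*, while *Snai1*, *Zeb1*, *Zeb2* and *Twist1* had few counts in the same libraries.

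Of the same 19 genes, 10 were lower and 0 higher in wounded libraries labelled *Grhl3*-cKO than in WT wounded ones, with a median of -0.60. Over all 14045 genes tested, 292 were lower and 275 higher, with a median of -0.01. *Cald1* was 47.4 and 35.9 CPM in the wounded *Grhl3*-cKO samples, and its log2 fold change there was -1.68 (95% interval -2.20 to -1.15, adjusted p = 0.0729 by edgeR). *Tpm1*, a tropomyosin, was 178 and 204 CPM there against 336 and 252 CPM in WT wounded libraries, and *Acta2*, smooth muscle actin, 0.723 and 4.48 CPM against 16.5 and 9.99 CPM. The *Tagln* call rests on WT wounded replicate 1, with 11.9 CPM against 0.843 CPM in replicate 2. In the same comparison, the endothelial genes summed to 13.1 and 10.5 CPM against 29.3 and 17.8 CPM. The median log2 fold change was -1.04 for endothelial and -0.66 for leukocyte genes, and 0.13 for fibroblast, 0.64 for mural and 0.18 for melanocyte genes. The mural median rests on 4 tested genes, of which *Cspg4* alone had more than 50 counts in any library. The mural sum was 73.7 and 67.8 CPM in wounded *Grhl3*-cKO libraries against 127 and 77.4 CPM in WT wounded ones. Of these cell type lists, *Flt1* (-1.86, unadjusted P = 0.0412 by edgeR) and *Cspg4* (-0.54, unadjusted P = 0.0225 by edgeR) were the genes that passed, both lower. Their part in the result was not tested. *Vim* did not share this direction: its wounded values in the 2 groups interleaved. The WT wounded libraries are common to both comparisons, so the higher and lower counts are not independent of each other.

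Epithelial markers passed about as rarely as all genes did. Of 16 genes, 15 were tested and 0 passed on wounding in WT, with a median of 0.12, where 4.84% of all genes passed. Between the wounded groups, where 4.04% of all genes passed, 1 did. This was *Epcam*, at a log2 fold change of -0.58 (95% interval -1.05 to -0.12, unadjusted P = 0.0176 by edgeR). A gene that did not pass is not shown to be level. *Cdh1*, the E-cadherin gene that SNAIL and ZEB factors repress, had 1346 and 1037 CPM in WT unwounded and 1476 and 1123 CPM in WT wounded libraries. Those groups overlapped, with a log2 fold change of 0.15. Under the *Grhl3*-cKO label it had 1219 CPM without and 1063 and 1148 CPM with a wound.

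Of 9 other splicing regulators, 8 were tested and 0 passed in either comparison, near the shares of 4.84% and 4.04% over all genes. Of 8 genes whose transcripts ESRP proteins are known to splice, 1 passed on wounding in WT: *Enah*, an actin regulator, from 134 and 187 CPM to 195 and 300.5 CPM. Counts per gene do not show which splice form was made. Of 11 TGF-beta pathway genes, *Tgfbi* and *Skil* were higher on wounding in WT, with log2 fold changes of 0.58 and 0.45, and *Tgfb2* was lower in wounded libraries labelled *Grhl3*-cKO, at -1.31 (standard error 0.35). Each passed without adjustment only.

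Suprabasal keratinocyte genes moved the other way. Of 6, 4 were lower on wounding in WT at an unadjusted P of 0.05 and 5 were higher in wounded libraries labelled *Grhl3*-cKO than in WT wounded ones. Of all 14045 genes tested, 234 were lower on wounding in WT and 275 higher between the wounded groups. In neither comparison did any of the 6 pass an adjusted p of 0.05 by edgeR. The WT wounded libraries enter both counts. *Krt10* had 2469 and 2336 CPM in WT unwounded, 1469 and 1986 CPM in WT wounded and, under the *Grhl3*-cKO label, 4259 CPM without and 2739 and 3520 CPM with a wound. In both genotypes the wounded *Krt10* values were under the unwounded ones, under the *Grhl3*-cKO label against the 1 library that differed in sex. With that label *Krt1*, *Dsg1a* and *Sbsn* were also lower in both wounded libraries. *Dsc1* (111 CPM without, 136 and 128 CPM with a wound) and *Krtdap* (64.3 CPM without, 121 and 117 CPM with a wound) were higher. The *Vim* values of the wounded groups interleaved.

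The genes whose pattern over the 7 libraries was most like that of a member were found by the root mean square difference of mean-centred log2 CPM among 11080 candidates, for *Zeb2*, *Zeb1* and *Vim*, the 3 with the widest range. For *Vim*, with a range of 3.12 log2 units, these were *Wnt16* at a difference of 0.39, *Prss12* at 0.43 and *F3* at 0.46. *F3*, tissue factor, had 51.9 and 68.8 CPM in WT unwounded, 94.9 and 93.5 in WT wounded and, under the *Grhl3*-cKO label, 26.7 without and 123 and 109.6 with a wound. For *Zeb2* they were *Fam64a*, *Procr* and *Tinagl1*, each at 0.56, and for *Zeb1* *B230206H07Rik* at 0.51, *Ehd3* at 0.53 and *Cldn4* at 0.54. The *Zeb1* and *Zeb2* patterns come from few counts. *Vim*, *Zeb2* and the genes most like them were all lowest in the unwounded library labelled *Grhl3*-cKO, which differed in sex. How far the likeness rests on that library was not tested.

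Open chromatin was read from the peaks that the authors called in each ATAC-seq library. The lists differ in length: 10769 peaks in WT unwounded, 36872 in WT wounded, 29364 in unwounded *Grhl3*-cKO and 22474 in wounded *Grhl3*-cKO. In or within 5 kb of the genes, 37 peaks fell at 14 sites, 3 of them in all 4 lists. A peak was found for 3 of the 10 genes in WT unwounded, where 36.0% of 19902 protein-coding genes had one. It was found for 8 of the 10 in WT wounded (64.3% of protein-coding genes), 6 in unwounded *Grhl3*-cKO (60.4%) and 7 in wounded *Grhl3*-cKO (50.8%). When every list was shortened to the 10769 peaks with the smallest p, 1 of the 10 genes had a peak in WT wounded, where 32.6% of protein-coding genes had one, and 3 in WT unwounded (36.0%). With a fold enrichment of at least 4 instead, 5 of the 10 had a peak in WT wounded (51.4%) and 1 in WT unwounded (24.8%). In WT, where the wounded list is the longer, list length and wounding cannot be told apart. In *Grhl3*-cKO the unwounded list is the longer, with a peak for 6 of the 10 genes against 7 in the wounded list. There are no replicates, and no difference between lists was tested.

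The *Snai2* start was open in every list. The peak ran from 14705551 to 14705985 on chromosome 16 in WT unwounded (fold enrichment over local background 4.77) and from 14705288 to 14706250 in WT wounded (4.71). In *Grhl3*-cKO it had a fold enrichment of 4.61 unwounded and 5.52 wounded. The gene starts at 14705852, inside all 4 peaks. At *Snai1*, on chromosome 2 from 167538195 to 167542814, and *Zeb1*, on chromosome 18 from 5591860 to 5775467, no list had a peak.

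*Zeb2*, on chromosome 2 from 44983632 to 45117395 on the minus strand, had 3 sites, none of them in the WT unwounded list. A site in an intron between 45049257 and 45049565 was in the WT wounded list (fold enrichment 4.76) and in both *Grhl3*-cKO lists (4.95 unwounded and 4.53 wounded). A site at an annotated start, between 45110026 and 45110379, was in both wounded lists. *Twist1* had a peak over its first exon on chromosome 12 in both wounded lists, with a fold enrichment of 3.26 in WT and 3.79 in *Grhl3*-cKO, while WT wounded RNA libraries had 0 counts.

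A site at or just upstream of the *Vim* start, on chromosome 2, had a peak in every list. It ran from 13573535 to 13573895 in WT unwounded (fold enrichment 3.89) and from 13573516 to 13574414 in WT wounded (4.30). In *Grhl3*-cKO it ran from 13573642 to 13573863 unwounded (4.30) and from 13573617 to 13574061 wounded (4.03). In both genotypes the wounded peak was the longer and covered the annotated gene start at 13573927, which the unwounded peaks did not reach. The RefSeq promoter of *Vim* lies further downstream, from 13574061 to 13574360, and of the 4 peaks the WT wounded one alone covers it whole. Peak ends depend on depth, and the lists do not give the reads behind them.

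At *Fn1*, on chromosome 1 from 71585520 to 71653200 on the minus strand, a peak at the start of the gene was in the 2 wounded lists only, from 71652712 to 71653282 in WT (fold enrichment 4.93) and from 71652929 to 71653115 in *Grhl3*-cKO (4.52). *Apol7d*, on the opposite strand and with no RNA count, overlaps both peaks. A second site, over an exon between 71598412 and 71598709, was in the WT wounded and the unwounded *Grhl3*-cKO lists. *Cdh2*, with no RNA count, had 1 peak over an exon near its start in the WT wounded list, at a fold enrichment of 3.08.

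The start of *Esrp1*, on chromosome 4, was open in every list, with fold enrichments between 3.54 and 3.88. Sites in an intron, between 11370537 and 11371119, and upstream, between 11388000 and 11388451, were in the other 3 lists but not in WT unwounded. *Esrp2*, on chromosome 8, had a site between 106134911 and 106135282 in the same 3 lists and a peak at its start, from 106136865 to 106137123, in unwounded *Grhl3*-cKO only, at a fold enrichment of 3.10. *1810019D21Rik* overlaps that last peak too.

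**Figure D2:**
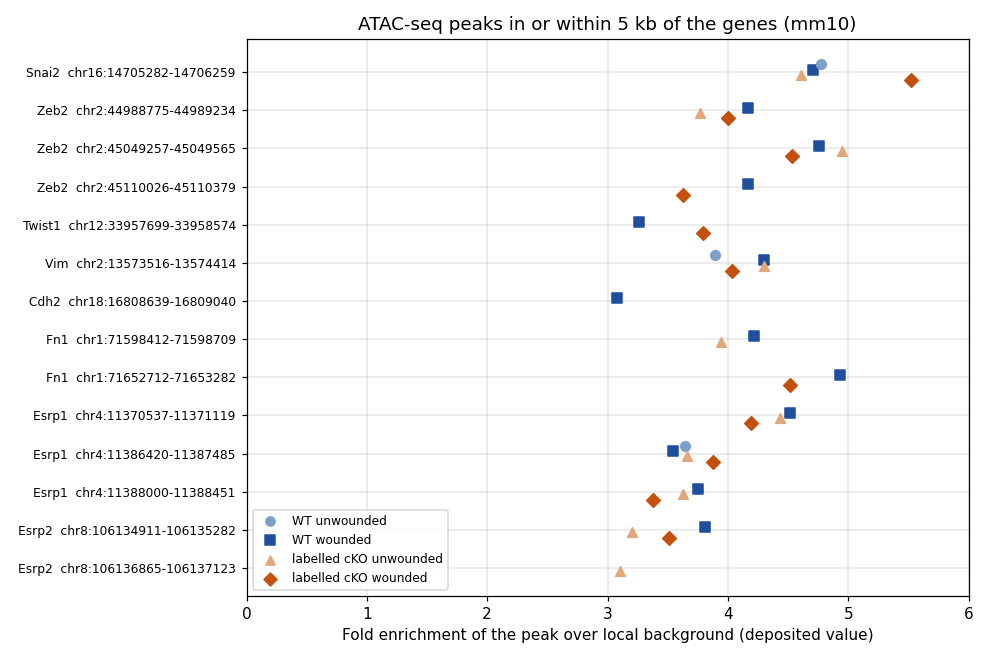
Fold enrichment of each deposited peak at the 14 sites in or within 5 kb of the genes, with a symbol per ATAC-seq condition; a missing symbol means that the list has no peak there. *Snai2*, *Vim* and the *Esrp1* start have a peak in all 4 lists, and values lie between 3.08 and 5.52.

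The peaks were searched on both strands for CACCTG, the E-box bound by SNAIL and ZEB factors, AACCNGTT, the core bound by GRHL factors, and TGANTCA, bound by AP-1. No peak of *Snai2*, *Zeb2*, *Twist1*, *Vim*, *Fn1*, *Esrp1* or *Esrp2* held AACCNGTT. It was in the central 300 bases of 2.77% of the 6865 WT unwounded peaks of at least 300 bases. In wounded *Grhl3*-cKO it was in the central 195 bases of 2.44% of the 20463 peaks of at least 195 bases. Finding none in the few peaks searched is close to these shares. The stretches below, from the mm10 genome on the plus strand, are the 5′ part of the *Vim* peak of WT unwounded keratinocytes (chr2:13573535-13573834) and the whole intronic *Zeb2* peak of wounded *Grhl3*-cKO keratinocytes (chr2:45049362-45049556). They are shown because *Vim* has the smallest unadjusted P of the members tested for wounding in WT, and *Zeb2* is 1 of the genes with sites missing from WT unwounded. Capitals mark matches.
Vim: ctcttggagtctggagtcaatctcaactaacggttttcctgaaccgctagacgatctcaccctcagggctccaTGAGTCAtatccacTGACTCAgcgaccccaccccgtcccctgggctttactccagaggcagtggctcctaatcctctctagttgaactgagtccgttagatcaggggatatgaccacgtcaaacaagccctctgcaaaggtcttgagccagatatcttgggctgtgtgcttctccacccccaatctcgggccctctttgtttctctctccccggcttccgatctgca
Zeb2: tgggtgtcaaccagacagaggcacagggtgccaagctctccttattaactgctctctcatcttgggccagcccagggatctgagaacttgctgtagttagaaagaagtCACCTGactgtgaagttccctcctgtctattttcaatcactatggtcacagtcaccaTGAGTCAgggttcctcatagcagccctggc
In *Vim* the 2 TGANTCA matches lie from 13573608 to 13573614 and from 13573622 to 13573628. Both are inside the WT peaks, the second alone is inside the wounded *Grhl3*-cKO peak and neither is inside the unwounded *Grhl3*-cKO peak. Of 6865 WT unwounded peaks of at least 300 bases, 20.4% held TGANTCA in their central 300 bases. In *Zeb2* there is 1 CACCTG and 1 TGANTCA; of 20463 wounded *Grhl3*-cKO peaks of at least 195 bases, 14.8% held CACCTG and 21.2% TGANTCA in their central 195 bases. These are matches of letters and not shown to be bound.

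RefSeq promoters (GRCm38.p6), which run over 300 bases around the start, were matched for 4 of the 10 genes, *Snai1*, *Twist1*, *Vim* and *Zeb2*, the last with several starts. *Snai1* held 1 CACCTG, found in 20.2% of 32851 promoters. The *Zeb2* promoter at chr2:45110228-45110527, on the minus strand, held 2 TGANTCA, found in 7.81% of promoters, and overlaps the peaks of both wounded lists at that start, though both matches lie outside those peaks. AACCNGTT, in 2.09% of promoters, was in none of the matched windows.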

How the data were processed

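The RNA-seq tables that the authors deposited hold a raw count, in whole reads, for each gene symbol; the submitters' notes name FastQC, kallisto and mm10, and which step made the counts is not given in the sources used here. Entries that name no gene (ambiguous reads, 1.34% to 1.45%, and reads without a unique alignment, 3.46% to 4.74%) were left out. The deposited peak lists give a fold enrichment, a ratio over local background, and a −log10 p and a −log10 q for each peak of 1 pooled library per condition; the caller's settings were taken as deposited.

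CPM divides a count by the library's total on genes. Genes were kept by edgeR's filterByExpr (14045 of 24421), normalized by TMM and compared by its two-sided quasi-likelihood test. A single model held the 7 libraries as 4 groups (common biological coefficient of variation 31.6%). P-values were adjusted by the Benjamini-Hochberg method over the genes tested. No exact permutation test of 2 against 2 can go below 0.333. All 4 combinations of edgeR's older or newer quasi-likelihood method with or without robust estimation were run. Neither the study design written down here nor the description of earlier processing names a combination. The older method without robust estimation was kept because it is the default of this edgeR version and its numbers of genes passing (680 and 567 unadjusted) equal those in earlier results of these data; that choice was made after seeing the data, with the P of every member in view, and *Fn1* passes in that combination only. The other combinations are alternatives added then. The 2-fold rules use TMM log2 CPM with a prior count of 2. RPKM uses merged exons of the GENCODE vM21 basic annotation of mm10, which matched 23376 symbols. RefSeq promoter sequences of GRCm38.p6 were identical to the genome in 2000 of 2000 checked. Overlaps need at least 1 base, and the *Cdh2* peak was not searched for motifs. The fit and overlaps were tested on simulated data.

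The members and gene lists were chosen with earlier results of these data known. Named genes are the 10 members, from each of 15 lists every gene past an adjusted p of 0.05 and at most the 3 smallest P under 0.05 per comparison, the most abundant gene of each cell type list, and the 3 genes most like each of the 3 members with the widest range, with a mean log2 CPM of at least 1. Other genes named, such as *Cdh1*, *Lum*, *Fap*, *Rgs5*, *Cd3e*, *Ptprc*, *Ddx3y*, *Col1a1*, *Col3a1*, *Dcn*, *Pdgfra*, *Tagln*, *S100a4*, *Sox9*, *Tcf3*, *Id1* and *Id3*, were chosen after their values were seen. Alternatives for RNA were DESeq2, RLE normalization, leaving the filter out or requiring 10 counts everywhere, fitting the 4 compared libraries alone, a replicate block, prior counts of 0.5 and 5, and dropping each library. For peaks they were the gene body, 10 kb, equal list lengths, q up to 0.01, fold enrichment from 4 up, and 50% of the peak inside. Software: samtools 1.23.1, bedtools 2.31.1, matplotlib 3.10.9, pandas 2.3.3, Python 3.11.15, DESeq2 1.42.0, edgeR 4.0.16 and R 4.3.3.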

Additional observations from a re-analysis of the deposited data

How the results depend on the processing

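*Vim* kept its direction and an unadjusted P under 0.05 on wounding in WT in all 16 alternatives. Its adjusted p by edgeR, 0.416, passed 0.05 in 3 of them, at 0.0167 with no filter, at 0.0463 without WT wounded replicate 1 and in a fit given below. No other of the 10 genes passed an adjusted p of 0.05 in any alternative. *Fn1* kept the call in 4 of 16 and changed sign without WT wounded replicate 1, so the count of the 10 genes passing fell from 2 to 1 with at least 10 counts in every library, with DESeq2, with only the 4 libraries compared, and with edgeR's newer method, robust estimation or both, which were chosen after seeing the data. The *Fn1* P was 0.0610, 0.0540, 0.0961, 0.0543, 0.0851 and 0.0860 in these, in that order. Leaving out 1 library gave 1 to 2 in WT and 0 to 1 between the wounded groups. In each such fit the lone library is assumed to vary like the other groups.

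The 4 genes past an adjusted p of 0.05 on wounding in WT became 96 with no filter, 24 with DESeq2, 0 with at least 10 counts in every library, with only the 4 libraries compared or with the newer method, and 1 with the newer method and robust estimation, and 0 to 29 leaving out 1 library. Between the wounded groups 0 became 51 with no filter, 3 with DESeq2 and 0 to 21 leaving out 1 library. The cause was not tested.

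Leaving out 1 library turned some signs. On wounding in WT the *Snai2* log2 fold change ran from -0.08 to 0.42 and that of *Fn1* from -0.11 to 1.17. Between the wounded groups *Snai1* ran from -2.21 to 1.25, *Snai2* from -0.18 to 0.18, *Zeb1* from -1.10 to 0.56, *Zeb2* from -1.96 to 0.11, *Vim* from -0.17 to 0.77 and *Fn1* from -0.94 to 0.34. *Twist1*, with a group at 0, was given no fold change.

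With a replicate block, 183 genes passed an adjusted p of 0.05 on wounding in WT and 0 between the wounded groups, and 2 and 0 of the 10 genes passed an unadjusted P of 0.05. *Vim* was among the 183, with an adjusted p of 0.00980 by edgeR. Nothing says that libraries with the same number share an animal; their deviations correlated at 0.154 and -0.039.

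The 5 genes 2-fold higher in wounded libraries labelled *Grhl3*-cKO became 2 with at least 10 counts in every library. Genes with a peak became 1 in WT unwounded (24.8% of protein-coding genes) and 5 in WT wounded (51.4%) at a fold enrichment of at least 4. With lists of equal length they became 1 in WT wounded (32.6%), 2 in unwounded (34.0%) and 1 in wounded *Grhl3*-cKO (32.8%). *Snai1*, *Zeb1*, *Zeb2* and *Twist1* had few counts that differed between replicates, and their intervals include large changes.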
